A study of Homo sapiens with 14 samples.

Results

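Of the 12877 summits of open chromatin called in radioresistant U251MG cells, 11401 (88.5%) had no summit of control cells within 250 bp on the same chromosome, and they are described here as radioresistant-only summits. The remaining 1476 had a control summit within 250 bp and are called shared summits. The 2 lists held 15331 summits in all, 2454 of them in control cells, of which 978 had no radioresistant counterpart within 250 bp. The summits were chosen by the positions of called peaks in 1 ATAC-seq library per condition, and the radioresistant list was 5.25 times as long as the control list. Being on 1 list alone is therefore a description of these libraries, with no replicate check and no test between conditions. Read depths of the ATAC-seq libraries were not known here, so depth and condition cannot be told apart.

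U251MG is an established human glioblastoma cell line, wild type by its label. Control cells had no radiation named in their labels, and radioresistant cells had received X-rays in daily fractions of 2 Gy, 30 in number, to a total of 60 Gy. RNA-seq covered both states with 3 libraries each, and radioresistant cells carrying the control hairpin shNC or the hairpin shIFI16, which targets IFI16, with 3 libraries each. The series set out to examine IFI16 in radioresistance. Nothing in the labels says that libraries of a group came from separate cultures, so the RNA tests below weigh differences against a spread that may be technical only. The 7 astrocyte markers listed were unevenly present by RNA. In TPM, a length-normalised share of all transcripts, the means in control and radioresistant cells were 4011 and 80.6 for GFAP, 272 and 49.1 for FABP7, 163 and 83.7 for GJA1 and 69.2 and 31.4 for SLC1A3. They were 8.66 and 0.38 for S100B, 0.0432 and 0 for AQP4 and 0.00812 and 0.501 for ALDH1L1. Of the 5 immune markers, PTPRC reached at most 0.0864 TPM in the 6 libraries of this comparison and CD3E and AIF1 were listed at 0, while CD68 had means of 17.3 and 20.3 TPM and CD14 of 0.737 and 1.45 TPM.

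In ATAC-seq, the transposase Tn5 cuts and tags DNA that nucleosomes leave accessible, and a summit is the position of the highest pile-up within a called peak. Promoters of active genes are commonly accessible just upstream of the transcription start, and enhancers far from any start open in a more cell-type-specific way. IFI16, the gene at the centre of the series, codes for a sensor of foreign and misplaced DNA and is itself induced by interferon. Interferon signalling acts through the interferon-stimulated response element (ISRE), a repeat of GAAA bound by STAT and IRF factors, whereas many promoters of broadly used genes carry sites for ETS factors, for the CCAAT-binding factor NF-Y, for NRF1 or for CREB.

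The sequences below are the 200 bases just upstream of the annotated start of 10 genes in which a radioresistant-only summit lies, from RefSeq promoters of GRCh38.p14, written 5′ to 3′ on the gene's strand. They were chosen after their values were seen, to set promoters with an ISRE beside promoters with other motifs. Capitals mark matches on either strand to 8 motifs, which were ISRE (2 copies of GAAA with 2 bases between them), ETS (CCGGAAG), the CCAAT box (CCAATCA), NRF1 (GCGCA, any base, then GCGC), YY1 (AAGATGGCG), CRE (TGACGTCA), AP-1 (TGANTCA) and the antioxidant response element, ARE (TGACNNNGC). A match is a run of letters and not a known binding site. The first 5 promoters hold an ISRE match. That of ISG15, an interferon-induced ubiquitin-like protein, is chr1:1013297-1013496 (+ strand), with the summit 45 bases before the start and overlapping ISRE matches 113 to 98 bases before it. For PLSCR1, a phospholipid scramblase induced by interferon, it is chr3:146544608-146544807 (- strand), with the summit 144 bases and the ISRE match 79 to 70 bases before the start. TAP2, a subunit of the peptide transporter that loads class I HLA molecules, is shown at chr6:32838740-32838939 (- strand), with the summit 81 bases and the match 58 to 49 bases before the start. PSME2, a proteasome activator subunit, is shown at chr14:24146611-24146810 (- strand), with the summit 150 bases before the start, an ISRE match 28 to 19 bases before it and an ARE match 175 to 167 bases before it. HNRNPD, an RNA-binding protein that regulates mRNA decay, is shown at chr4:82373992-82374191 (- strand), with the summit 69 bases before the start, an ETS match 183 to 177 bases before it and an ISRE match 93 to 84 bases before it.
ISG15: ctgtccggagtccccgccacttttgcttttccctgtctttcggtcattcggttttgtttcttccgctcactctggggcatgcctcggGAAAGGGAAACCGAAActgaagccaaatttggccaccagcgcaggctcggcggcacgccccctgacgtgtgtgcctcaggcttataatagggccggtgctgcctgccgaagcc
PLSCR1: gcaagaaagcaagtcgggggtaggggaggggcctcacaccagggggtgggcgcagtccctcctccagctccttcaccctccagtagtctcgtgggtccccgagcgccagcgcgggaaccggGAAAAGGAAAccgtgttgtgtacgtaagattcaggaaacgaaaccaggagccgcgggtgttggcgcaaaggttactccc
TAP2: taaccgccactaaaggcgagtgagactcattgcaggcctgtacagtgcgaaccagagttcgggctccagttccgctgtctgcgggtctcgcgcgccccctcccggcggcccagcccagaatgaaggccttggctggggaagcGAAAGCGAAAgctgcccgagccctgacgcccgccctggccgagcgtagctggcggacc
PSME2: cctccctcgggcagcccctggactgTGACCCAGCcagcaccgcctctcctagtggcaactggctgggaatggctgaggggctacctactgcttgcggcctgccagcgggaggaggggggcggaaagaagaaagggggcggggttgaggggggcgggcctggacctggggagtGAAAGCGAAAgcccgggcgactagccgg
HNRNPD: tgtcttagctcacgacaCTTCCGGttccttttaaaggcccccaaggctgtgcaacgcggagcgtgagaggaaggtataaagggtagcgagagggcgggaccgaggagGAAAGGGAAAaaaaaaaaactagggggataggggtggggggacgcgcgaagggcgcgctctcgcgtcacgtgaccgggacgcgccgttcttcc

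The other 5 promoters show matches to ETS, the CCAAT box, CRE and AP-1. RIOK1, a kinase of ribosome assembly, is shown at chr6:7389608-7389807 (+ strand), with the summit 6 bases before the start and an ETS match 20 to 14 bases before it. MFN1, a GTPase of mitochondrial fusion, is shown at chr3:179347509-179347708 (+ strand), with the summit 35 bases before the start and ETS matches 63 to 57 and 22 to 16 bases before it. MCM3, a subunit of the replicative helicase, is shown at chr6:52284743-52284942 (- strand), with the summit 40 bases before the start and CCAAT matches 122 to 116 and 84 to 78 bases before it. AASDH, an enzyme of amino acid metabolism, is shown at chr4:56387492-56387691 (- strand), with the summit 15 bases and a CRE match 28 to 21 bases before the start. SLC1A3, a glutamate transporter of astrocytes, is shown at chr5:36606754-36606953 (+ strand), with the summit 20 bases before the start and AP-1 matches 128 to 122 and 26 to 20 bases before it.
RIOK1: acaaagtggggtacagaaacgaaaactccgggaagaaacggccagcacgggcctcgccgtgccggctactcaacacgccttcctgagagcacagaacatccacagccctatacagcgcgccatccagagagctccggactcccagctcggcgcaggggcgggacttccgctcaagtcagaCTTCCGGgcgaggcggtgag
MFN1: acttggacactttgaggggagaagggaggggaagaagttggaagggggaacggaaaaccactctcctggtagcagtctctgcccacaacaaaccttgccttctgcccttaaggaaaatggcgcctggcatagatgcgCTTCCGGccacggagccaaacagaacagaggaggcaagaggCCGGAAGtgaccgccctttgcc
MCM3: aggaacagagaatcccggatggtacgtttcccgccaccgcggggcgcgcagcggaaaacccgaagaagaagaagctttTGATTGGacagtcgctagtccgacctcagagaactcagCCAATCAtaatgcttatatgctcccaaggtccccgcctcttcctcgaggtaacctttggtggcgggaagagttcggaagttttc
AASDH: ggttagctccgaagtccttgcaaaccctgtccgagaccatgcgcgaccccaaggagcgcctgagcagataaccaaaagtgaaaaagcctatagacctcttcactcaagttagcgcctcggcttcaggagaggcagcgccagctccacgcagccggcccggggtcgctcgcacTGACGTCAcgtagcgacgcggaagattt
SLC1A3: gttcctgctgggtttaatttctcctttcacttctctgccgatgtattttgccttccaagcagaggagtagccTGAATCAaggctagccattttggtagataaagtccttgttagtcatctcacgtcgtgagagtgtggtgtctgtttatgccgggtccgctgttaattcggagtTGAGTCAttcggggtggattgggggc

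Each summit carries a score, which by the layout of the list is the -log10 q-value of its peak, so that a higher score is a firmer call. The radioresistant-only summits scored 3.95 at the median, with 10% of them at or below 2.32, 10% at or above 7.3 and the highest at 32.6. Shared summits of the same library scored 6.29 at the median and up to 71.9. A score of 10 or more was reached by 339 radioresistant-only summits (2.97%) and by 329 shared summits (22.3%). Most radioresistant-only summits were thus weak calls by the scale of their own list. The plot of score distributions shows the shared summits above the radioresistant-only ones over most of the range.

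**Figure D1:**
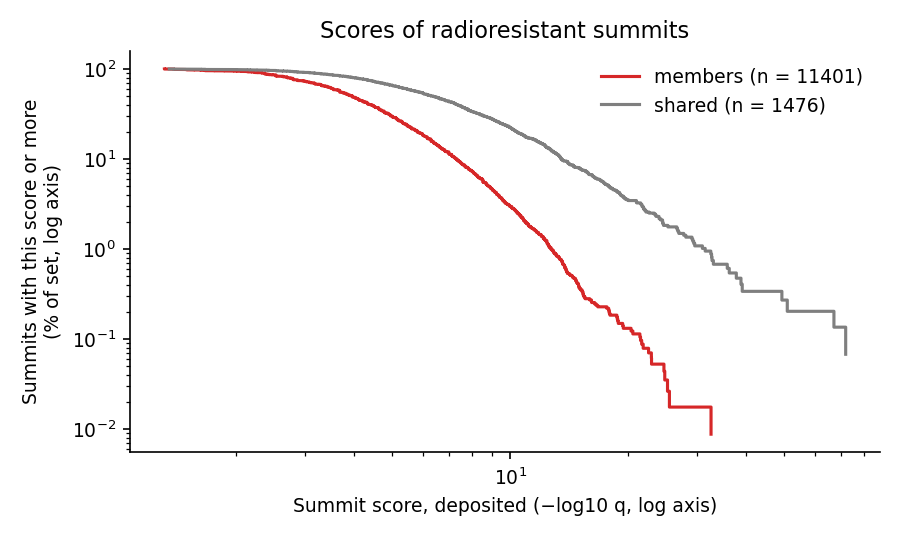
Share of summits (vertical axis, % of each set, log axis) that reach a given deposited score (horizontal axis, -log10 q, log axis), for the 11401 radioresistant-only summits (members, red) and the 1476 shared summits (grey) of the radioresistant library. At a score of 10 the curves stand at 2.97% and 22.3%.

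Most radioresistant-only summits lay far from any control summit, with a median distance of 277692 bp. The window of 250 bp nevertheless set the membership of a group close to it. Beyond the window and up to 500 bp from a control summit lay 340 of them (2.98%), with a median score of 6.27, and 65 of these (19.1%) scored 10 or more. Between 501 and 1000 bp there were 60, with a median of 4.89, and beyond 1000000 bp there were 1932, with a median of 3.74. Just inside the set, 1 bp beyond the window, stood summits at chr12:113215195, chr17:23016250 and chr2:237085765, which scored 8.05, 5.61 and 6.28. Just outside the set, the summit at chr1:143254803 lay 250 bp from a control summit and scored 6.23, and those at chr17:17010544 and chr17:81991973 lay 249 bp away and scored 3.36 and 7.23. Among the 10 highest-scoring radioresistant-only summits 5 lay within 1000 bp of a control summit, and among the 100 highest 33 did.

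The 10 highest-scoring summits were a mixed group. The highest, 32.6, stood at chr5:11444, and 3 of the 10 lay on unplaced contigs or contigs with no fixed place in the assembly. At chr17:43283813 a summit of 25.2 lay within an array of snRNA genes, 295 bp from a control summit. The highest that lay close to the start of a protein-coding gene scored 23 and stood at chr7:25125541, 281 bp upstream of CYCS, which codes for cytochrome c, the electron carrier that also triggers apoptosis. Its nearest control summit was 736761 bp away. CYCS RNA was 77.3, 70.4 and 85.9 TPM in control libraries and 136, 154 and 172 TPM in radioresistant ones, so that the groups did not overlap, and it rose by 0.97 (SE 0.124) on the log2(TPM + 1) scale (limma, adjusted p = 0.00014). A summit of 21.9 lay inside SERINC2 and away from its start. SERINC2, a membrane protein of the serine incorporator family, rose by 1.81 (SE 0.178, limma, adjusted p = 2.4e-05), from 5.62, 5.05 and 8.34 TPM to 25, 27.1 and 21.2 TPM.

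Other high-scoring summits at coding starts, named after their values were seen, differed in the sign of the RNA difference. Those of them that limma called without added scaling fell. SRGAP2C (summit score 20.6) fell by 0.80, PPP1R11 (15.5) by 0.31 and EVI5L (15.3) by 0.58 (limma, adjusted p of 0.00048, 0.044 and 0.027). Whether these calls held under other scalings or with a library left out was not checked. At the start of DELE1, which relays mitochondrial stress, a summit of 21.5 lay 303 bp from a control summit, and the RNA difference was -0.20 (SE 0.122, limma, adjusted p = 0.21). A summit of 21.4 near CCDC107 fell inside RMRP, the RNA of the mitochondrial RNA-processing ribonuclease, at chr9:35657750-35658019. GPHN, which codes for gephyrin, the scaffold of inhibitory synapses, had a summit of 18.7 that lay 62 bp from its start and 2187537 bp from the nearest control summit. GPHN RNA was 8.97, 8.9 and 9.22 TPM in control and 10.7, 11.5 and 10.9 TPM in radioresistant libraries, a difference of 0.26 (SE 0.123, limma, adjusted p = 0.11), which was called with quantile or median-ratio scaling (adjusted p = 0.018). For the promoters printed above, RIOK1 (summit score 14.4) differed by 0.19 (adjusted p = 0.34), MFN1 (13.1) fell by 0.40 (adjusted p = 0.044) and AASDH (13) fell by 1.12 (adjusted p = 0.00037), all by limma. The call of MFN1 was lost without control library 1 or 2 or radioresistant library 1 or 3 (adjusted p of 0.12 to 0.16) and under both other scalings.

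Gene starts were taken from RefSeq, as 37537 starts of 27305 protein-coding and lncRNA genes on 23 chromosomes. On these chromosomes lay 10861 of the radioresistant-only summits. The other 540 comprised 460 on chromosome 8, for which starts were not used here, 75 on contigs and 5 on the mitochondrial genome. Within 1 kb of a start lay 3721 of the 10861, or 34.3% (95% interval 33.4 to 35.2%, exact Clopper-Pearson). Within 100 bp lay 13.4%, beyond 10 kb 51.8%, and the median distance was 11530 bp. Of the shared summits 35.8% (33.3 to 38.5%) lay within 1 kb, and of all control summits 32.8% (30.9 to 34.8%). The intervals cover counting error only and overlap between radioresistant-only and shared summits. By the spans of genes, 50.1% of the radioresistant-only summits lay inside a protein-coding gene, 11.2% inside a lncRNA gene alone and 38.7% outside both.

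The share near starts moved with the score. With the summits ranked by score into 10 equal groups, it was 28.2% in the lowest group, 25% in the next and 44.8% in the highest, where the median distance to a start was 4430 bp. Within 1 kb, the summits gathered just upstream of the start. Their median position was -26 bp, 56.6% lay upstream, and the 100 bp before the start held 949 of them (25.5%). The 100 bp after the start held 506. The plot of positions around starts shows the same peak for shared summits, whose median position was -45 bp.

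**Figure D2:**
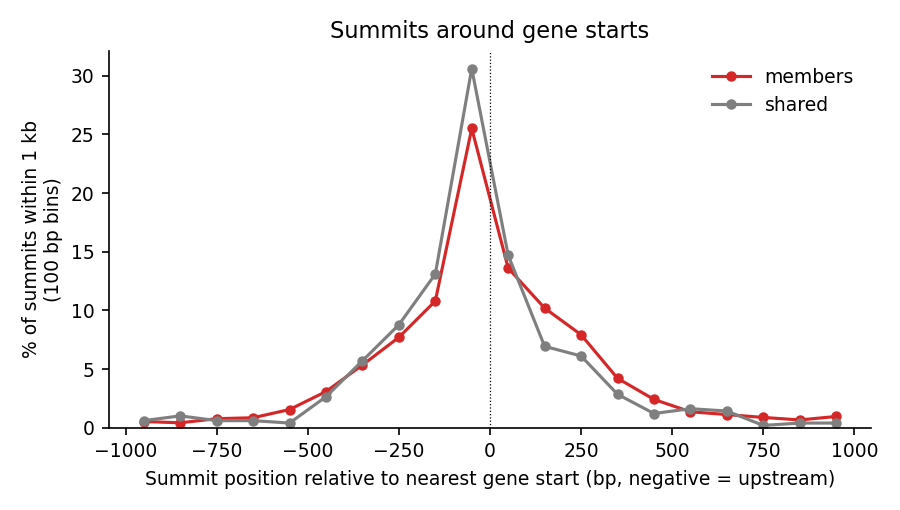
Position of summits relative to the nearest gene start (horizontal axis, bp, negative is upstream, bins of 100 bp) as a share of the summits within 1 kb of a start (vertical axis, %), for radioresistant-only summits (members, red, n = 3721) and shared summits (grey, n = 490). The highest bin is the 100 bp upstream of the start in both, with 25.5% of the radioresistant-only summits.

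Chromosomes differed in how many radioresistant-only summits they carried for their number of starts. Chromosome 18 carried 11.5 per 100 starts, chromosome 19 carried 20.9, and chromosomes 5 and 7 carried 36 each. The control library followed a partly like order, with 2.07 control summits per 100 starts on chromosome 18 and 9.3 on chromosome 5. Chromosomes 9 and 15 carried 31.5 and 31.9 radioresistant-only summits per 100 starts but 4.76 and 4.36 control summits. Chromosome 22 carried 26.1 and 7.8. Chromosomes 1, 3, 5, 6 and 7 were at the high end in both lists. Copy number of the chromosomes in this line was not analysed here.

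**Figure D3:**
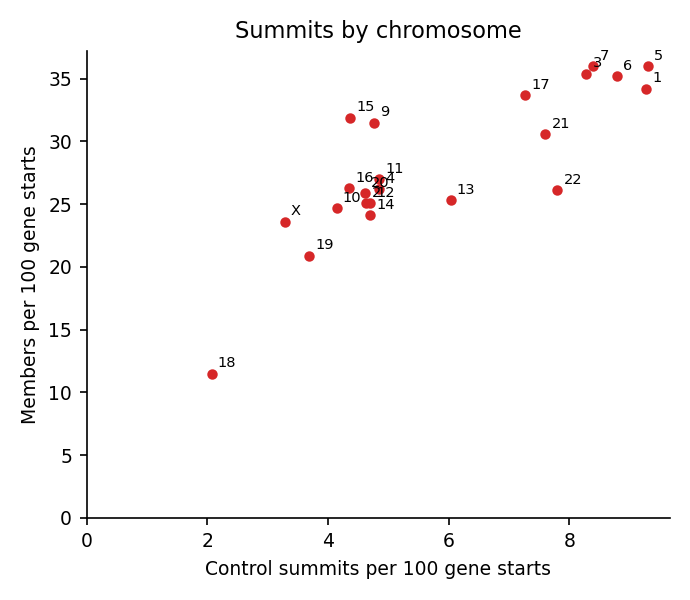
Radioresistant-only summits (vertical axis) against control summits (horizontal axis), each per 100 gene starts of the chromosome, with 1 point per chromosome, chromosomes 8 and Y left out. Chromosome 18 stands lowest on both axes (11.5 and 2.07), and chromosomes 1, 3, 5, 6 and 7 stand at the upper right.

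Radioresistant-only summits were mostly solitary. A cluster was counted where at least 3 followed each other with gaps of at most 12.5 kb, and 280 summits (2.46%, 95% interval 2.18 to 2.76%) formed 78 clusters, while 9803 (86%) had no neighbour in that reach. The 5 clusters with the most summits lay mainly in repeated sequence, where reads of near-identical copies cannot be placed with certainty. Those with 20 and 13 summits spanned ribosomal RNA repeats at chr21:8377270-8471163 and chr21:8212656-8254924, with RNA45SN1, RNA45SN2 and RNA45SN3 among the genes, and also held 7 and 3 shared summits. A cluster of 6 covered an array of snRNA genes at chr17:43271348-43296223, 5 summits lay on the mitochondrial genome and 5 on an unplaced contig. Another 5 formed a cluster at chr19:14496551-14529556 over DNAJB1, which codes for a co-chaperone of HSP70, and TECR, an enzyme of fatty acid elongation, with no shared or control summit inside. DNAJB1 RNA was 241, 245 and 248 TPM in control and 244, 248 and 243 TPM in radioresistant libraries (limma, adjusted p = 0.98).

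Of the 10 clusters of 4 summits, those at SOX2 and PKM are described. At SOX2, a transcription factor of neural stem cells, 4 summits with scores of 3.08 to 5.73 spanned chr3:181704323-181723886, with no control summit among them. SOX2 RNA was 347, 416 and 497 TPM in control and 171, 146 and 130 TPM in radioresistant libraries, and it fell by 1.48 (SE 0.149, limma, adjusted p = 2.9e-05). At PKM, which codes for the pyruvate kinase of glycolysis, 4 summits spanned chr15:72222639-72237500, and the RNA fell by 0.27 (SE 0.0971, limma, adjusted p = 0.046), a call lost on leaving out any library but control library 3 (adjusted p of 0.086 to 0.17). These clusters were named after their values were seen.

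Radioresistant-only summits lay at some genes read by RNA polymerase III and not at others. Within 250 bp of 45 of 443 tRNA genes (10.2%) lay one, with the highest score of 12.4 at TRX-CAT1-8, and 33 tRNA genes had a shared summit. The vault RNA genes, which code for the RNA of a large cytoplasmic particle, had one at 3 of 4, with a score of 8.39 at VTRNA1-1. RMRP is also of this class. None of the 4 Y RNA genes, the 4 genes annotated as scRNA or the 1 RNase P RNA gene had one, and the last and 2 of the scRNA genes had a shared summit. Of the other classes, 28.3% of protein-coding and 10.5% of lncRNA genes had one, as did 24 of 1913 miRNA genes (1.25%) and 2 of 1199 snoRNA genes (0.167%). These counts take a summit anywhere within a gene or up to 250 bp from its ends, so they grow with gene length. Classes of unlike gene length cannot be compared by them.

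The genes with the most radioresistant-only summits nearest to them within 50 kb were LOC124904993, beside the ribosomal RNA repeats, with 13, and MRPS23, a mitochondrial ribosomal protein, with 9. CDH4, the adhesion protein R-cadherin, followed with 7. VGLL4, a cofactor that restrains YAP and TEAD, had 6, as did PDE4DIP and SEPTIN9, and VDAC1, the main channel of the outer mitochondrial membrane, had 5, as did LINC02773, MTSS2 and ATXN7. VGLL4 RNA was 104, 102 and 99.5 TPM in control and 68.9, 62.9 and 55.6 TPM in radioresistant libraries and fell by 0.70 (limma, adjusted p = 0.00066). VDAC1 rose by 0.38 (limma, adjusted p = 0.012) and CDH4 fell by 0.35 (limma, adjusted p = 0.033). VDAC1 was not called without control library 2 or radioresistant library 3 (adjusted p of 0.063 and 0.057), nor CDH4 without control library 2 or radioresistant library 2 or 3 (adjusted p of 0.11 to 0.12) or under either other scaling. For MRPS23, PDE4DIP, MTSS2 and ATXN7 limma made no call (adjusted p of 0.23 to 0.92). The number of summits near these genes went with no single direction of RNA. In all, 5839 genes had 1 such summit, 924 had 2 and 234 had 3 or more.

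Promoters with a radioresistant-only summit were close to those with a shared summit in CG pairs and in the share with an ETS or CCAAT match. A radioresistant-only summit lay inside 2290 of 35116 RefSeq promoters, taken as 250 bases before to 50 after the start, and 94% of these had 10 or more CG pairs, against 56.4% of all promoters, 94.5% of the 384 promoters with a shared summit and 80.4% of 9314 promoters of tested genes with no radioresistant summit within 1 kb. The ETS motif was found in 25% of them, against 10.3%, 25.8% and 14.9% of these 3 sets. The CCAAT box was found in 13.1% of them and in 6.95%, 13.5% and 7.59% of the 3 sets, in that order. NRF1 matched 13.1%, 5.78%, 11.2% and 9.45%, YY1 4.28%, 1.75%, 5.73% and 3.2%, and CRE 3.76%, 1.85%, 2.86% and 2.78%. At least 1 of these 5 motifs stood in 49.8% of promoters with a radioresistant-only summit and in 50.3% of those with a shared one.

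AP-1, ISRE, SOX and TEAD matches were rarer in these promoters than in all promoters. AP-1 matched 4.76% of promoters with a radioresistant-only summit, 7.71% of all, 5.99% of those with a shared summit and 5.35% of those of tested genes with no radioresistant summit. The ISRE matched 58 of the 2290 (2.53%), and 3.57%, 1.3% and 3.2% of the same sets. SOX (ACAATGG) matched 1.53%, 3.16%, 2.6% and 1.94%, and TEAD (ACATTCC) 1.92%, 3.46%, 1.3% and 2.18%. The ARE matched 16.1%, 13.3%, 14.3% and 14%, the CTCF core motif 3.76%, 2.41%, 2.08% and 2.43%, and the GC box (GGGCGG) 69%, 45%, 68.5% and 65.3%. The E-box (CAGCTG) matched 17%, 17.9%, 21.1% and 16.8%. Median GC content was 64% in promoters with a radioresistant-only summit, 58.7% in all, 63.7% with a shared summit and 65.7% in tested genes with no radioresistant summit, and the shares were not adjusted for it.

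RNA was measured in libraries that the choice of summits did not use, and gave an independent readout of the genes concerned. A radioresistant-only summit lay within 1 kb of a start of 4697 genes (17.2% of those with a start), of which 3916 were in the RNA table and 3575 passed the filter on low values (1 TPM or more in 3 or more of 6 libraries) and were tested. Limma on log2(TPM + 1) called 483 of the 3575 (13.5%) higher and 973 (27.2%) lower in radioresistant cells. Over all 13127 genes tested it called 16.9% higher and 27% lower, and over the 10436 tested genes with a start 16.7% and 27.1%. The median difference was -0.13 for genes with such a summit and -0.11 for all tested genes. The 511 tested genes with a shared summit within 1 kb were called higher in 14.3% and lower in 27.6%, and the 6379 with no radioresistant summit there in 18.8% and 26.9%. With median-ratio scaling, which moved the median of all tested genes from -0.11 to 0.01, the calls were 714 higher and 784 lower, against 22.7% and 22.3% of all tested genes. Without radioresistant library 3 the count of higher calls was 317 (8.9%, against 11.6% of all tested genes), and without control library 2 that of lower calls was 619 (17.5% against 17.4%). Without control library 3 the share of lower calls was 37.9% against 34.3%, and for the 137 tested genes with a summit that scored 10 or more it was 34.3%.

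Changes of at least 2-fold, with fold taken throughout on the log2(TPM + 1) scale, were fewer still. Among genes with a radioresistant-only summit at the start 82 (2.29%) were called and at least 2-fold higher and 166 (4.64%) at least 2-fold lower, against 4.6% and 6.18% of tested genes with a start. Read the other way, such a summit stood at the start of 36.1% (95% interval 34.9 to 37.4%, exact Clopper-Pearson) of the 5864 genes with no call. It stood at 31.6% of genes called higher by under 2-fold, 18% (14.2 to 22.2%) of those higher by 2 to 4-fold, 22.2% of those higher by 4 to 8-fold, and 1 of 44 (2.27%, 0.0575 to 12%) of those higher by over 8-fold. That gene was ISG15. TAP2, CD82 and DDX60, with rises of 2.99, 2.89 and 2.75, stood in the range below. Their mean TPM went from 22.8 to 189, from 5.1 to 44.2 and from 4.44 to 35.8. In TPM itself these rises are also over 8-fold. Genes called lower by under 2-fold had one in 37%, by 2 to 4-fold in 27.4%, by 4 to 8-fold in 14.5% and by over 8-fold in 5 of 21 (23.8%, 8.22 to 47.2%).

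The share also moved with the level of RNA. With tested genes ranked by mean TPM over the 6 libraries into 10 equal groups, it was 20.9% in the lowest group, 33.9% in group 4 and 37.5% in the highest. Genes that rose or fell at least 2-fold both had a lower share than genes of like level with no call. For those that rose it was 11% (21 of 191) at a mean of 1 to 10 TPM, against 29.4% of genes with no call. At 10 to 100 TPM it was 21.6% (44 of 204) against 38.3%, and at 100 TPM or more 25% (17 of 68) against 38.8%. For those that fell it was 18.5%, 33.9% and 19.7% in the same 3 ranges. Genes share promoters and are not replicates, so no test was made of these shares. The plot of shares by RNA change and level shows both patterns.

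**Figure D4:**
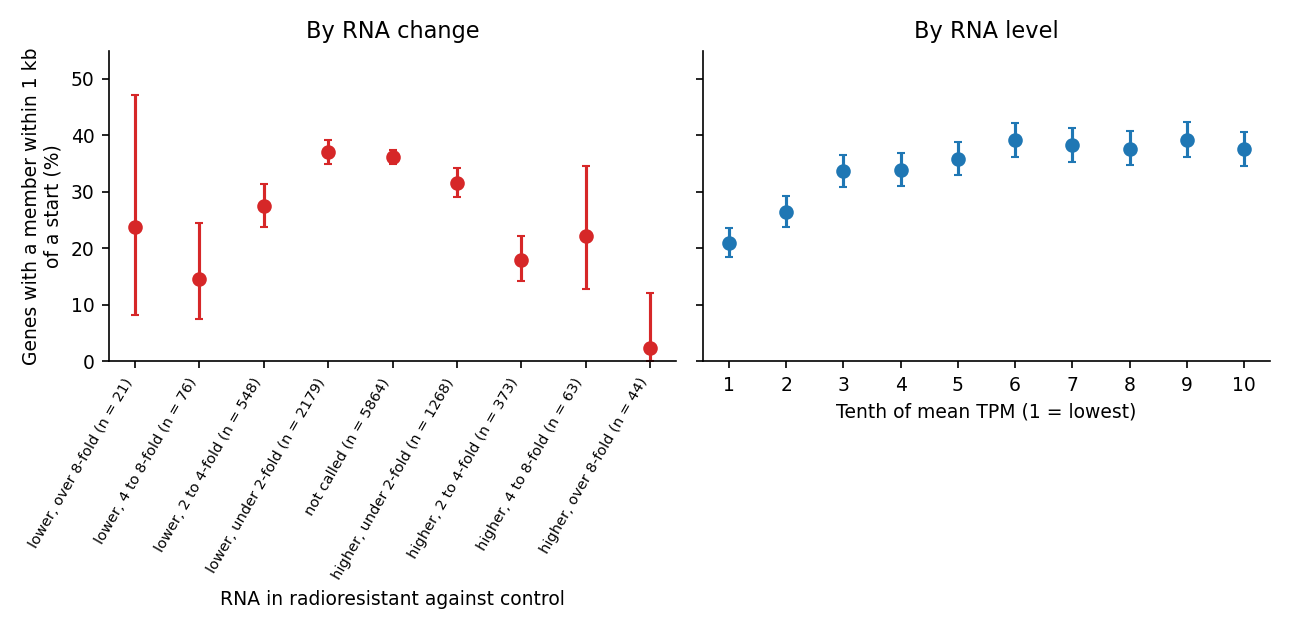
Share of tested genes with a radioresistant-only summit within 1 kb of a start (vertical axis, %), by RNA change in radioresistant against control cells (left, limma call and fold on the log2(TPM + 1) scale) and by group of mean TPM over the 6 libraries, 1 lowest to 10 highest (right). Bars are exact 95% intervals, which cover counting error only. The share is 36.1% for genes with no call and 2.27% for those over 8-fold higher.

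IFI16 had a radioresistant-only summit at its start, at chr1:158999953, 23 bp upstream of the 5′ end of the gene (chr1:158999976-159055151), with a score of 6.8. The nearest control summit lay 834984 bp from the gene. IFI16 RNA was 70.3, 71.1 and 49.6 TPM in control and 250.8, 308.8 and 242.6 TPM in radioresistant libraries, with no overlap, and it rose by 2.06 (SE 0.156, limma, adjusted p = 3.8e-06). With shNC it was 125, 140 and 127 TPM and with shIFI16 7.68, 7.9 and 6.71 TPM, a fall of 3.97 (SE 0.0883, limma, adjusted p = 4.4e-14), which goes with the reading of these columns as knockdown. HMOX1, the heme-degrading enzyme, had no radioresistant-only summit nearer than 52074 bp to its span (chr22:35381096-35394207), while a shared summit stood 30143 bp away. HMOX1 RNA was 19.7, 25 and 26.4 TPM in control and 178, 168 and 260 TPM in radioresistant libraries and rose by 3.02 (limma, adjusted p = 5e-07).

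Some sensors of nucleic acid had both a radioresistant-only summit at the start and higher RNA. Of 11 listed genes with a known start 4 had a radioresistant-only summit there, and 3 of these 4 rose, where 6 of the 9 tested genes of the list with a start rose in all. Besides IFI16 these were SAMHD1 and TRIM25. SAMHD1, an enzyme that depletes dNTPs, had a summit of 7.2 lying 121 bp upstream. TRIM25, the ubiquitin ligase that activates RIG-I, had one of 6.07 lying 22 bp upstream. SAMHD1 RNA was 69.8, 63.9 and 47.1 TPM in control and 267, 323 and 274 TPM in radioresistant libraries, and it rose by 2.25 (SE 0.151, limma, adjusted p = 1.6e-06). TRIM25 was 36.7, 36.8 and 34.8 TPM and 127, 134 and 135 TPM, a rise of 1.84 (SE 0.102, limma, adjusted p = 3.8e-07). DDX41, a helicase that senses DNA, had the highest score of the list, 7.67, and fell by 0.33 (SE 0.101, limma, adjusted p = 0.021), from 94.5, 100 and 101 TPM to 80.1, 74.7 and 79.2 TPM. That call was lost without control library 2 or any 1 radioresistant library (adjusted p of 0.054 to 0.11) and with median-ratio scaling (0.13).

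Interferon-stimulated genes rose widely, mostly with no radioresistant-only summit at the start. All 34 tested genes of the list with a known start were called higher. Of these, RSAD2, CMPK2 and XAF1 were under 1 TPM in every control library. They passed the filter through the radioresistant libraries alone, so that their direction was fixed. Such a summit stood at the start of 6 of the 34, against 34.3% of all tested genes with a start. Over genes with a start, tested or not, it was 6 of 37 (16.2%) against 17.2%. The 6 were ISG15, ISG20, HERC5, DDX60, SP110 and DDX58, which codes for RIG-I. ISG15 was 221, 256 and 236 TPM in control and 8072, 7462 and 6489 TPM in radioresistant libraries, a rise of 4.94 (SE 0.116, limma, adjusted p = 1.9e-09), and its summit 45 bp upstream scored 2.26, near the low end of the list. DDX58 was 29.8, 28.8 and 15.5 TPM and then 132, 159 and 122 TPM, with a summit of 5.84, and rose by 2.48 (SE 0.226, limma, adjusted p = 2.7e-05). DDX60, a helicase that aids RIG-I, rose by 2.75 and SP110, a nuclear body protein, by 2.22 (limma, adjusted p of 1.9e-06 and 3.4e-06). PLSCR1, which is not on that list, rose by 2.45 (SE 0.106, limma, adjusted p = 7e-08), from 37.4, 35.9 and 32.7 TPM to 194, 207 and 190 TPM.

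Many interferon-stimulated genes with large rises had their nearest radioresistant-only summit farther off. The 5 given here were chosen after their values were seen and are not the 5 largest rises. CMPK2, for example, rose by 6.25 with its nearest such summit 50562 bp away. ISG15, with its summit 45 bp from the start, rose more (4.94) than IFI6 and IFIT1. RSAD2, the antiviral enzyme viperin, rose by 6.63, a direction fixed by the filter, with its nearest such summit 39420 bp away. The distance was 45786 bp for MX1, an antiviral GTPase (5.46), 9423 bp for OAS1, which makes 2-5A (5.99), 13166 bp for IFI6 (4.70) and 18270 bp for IFIT1 (4.02). None of these 5 had a shared summit at the start either. Their accessibility below the calling threshold was not analysed here.

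Genes of antigen presentation also rose widely, but their share with such a summit was near that of all tested genes with a start (34.3%). Of 13 with a known start 5 (38.5%) had a radioresistant-only summit there, and 4 of the 5 rose, where 11 of the 13 rose in all. PSMB8, a subunit of the immunoproteasome, had a summit of 5.98 lying 248 bp downstream of its start, and its RNA was 52.1, 45.9 and 48.1 TPM in control and 367, 337 and 300 TPM in radioresistant libraries, a rise of 2.75 (SE 0.113, limma, adjusted p = 4.7e-08). The same summit served its overlapping antisense gene PSMB8-AS1, and without known strand use their reads cannot be told apart. TAP2 was 24, 24.4 and 20 TPM and then 217, 177 and 173 TPM, and it rose by 2.99 (SE 0.131, limma, adjusted p = 7.1e-08). B2M, the light chain of class I HLA, rose by 2.13 and ERAP1, which trims peptides, by 1.07 (limma, adjusted p of 2e-06 and 0.00017). CALR, the chaperone calreticulin, differed by -0.23 (limma, adjusted p = 0.095). PSMB9, which lies beside TAP1 and PSMB8, and HLA-B rose by 6.16 and 6.34 with no such summit nearer than 9761 and 9918 bp, and reads of HLA genes can be shared among near-identical copies.

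In the promoters with an ISRE the RNA was mixed. Of 46 tested genes with both an ISRE match and a radioresistant-only summit in the 300-base promoter, 12 (26.1%) were called higher and 8 (17.4%) lower, against 13.5% and 25.9% of the 1752 tested genes with such a summit there. With an ETS match 63 of 465 (13.5%) were higher and 97 (20.9%) lower. PSME2 rose by 1.25 (SE 0.107, limma, adjusted p = 1e-05), from 210, 198 and 187 TPM to 517, 461 and 438 TPM. HNRNPD, whose promoter is printed above with an ISRE match as well, was 213, 225 and 291 TPM and 321, 249 and 331 TPM, groups that overlap (0.31, SE 0.15, limma, adjusted p = 0.12). It was called without control library 3 or radioresistant library 2 (adjusted p of 0.0049 and 0.041).

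Targets of NRF2, the regulator of the antioxidant response, had a radioresistant-only summit at 3 of 23 starts, and all 3 genes rose. OSGIN1, an oxidative stress gene, went from 2.65, 5.27 and 8.32 TPM to 23, 21.7 and 28 TPM, a rise of 2.07 (SE 0.297, limma, adjusted p = 0.00063). BLVRB, a biliverdin reductase, rose by 0.78 and AKR1C1, an aldo-keto reductase with close copies in the genome, by 2.56 (limma, adjusted p of 0.00055 and 1.2e-06). In all, 15 of the 21 tested targets with a known start were called higher. Targets of NF-kB had one at 5 of 18 starts, and 7 of the 15 tested with a start rose and 1 fell in all. SOD2, the mitochondrial superoxide dismutase, had the highest score among them, 9.62, and rose by 0.63 (SE 0.0986, limma, adjusted p = 0.00053), from 99.1, 92.6 and 93.5 TPM to 150, 144 and 151 TPM. BIRC3, an inhibitor of apoptosis, rose by 0.92 (limma, adjusted p = 0.001), and BIRC2, NFKB1 and TNFAIP2 were not called. With quantile or median-ratio scaling limma called NFKB1 higher (adjusted p of 0.022 and 0.013).

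Radioresistant-only summits stood at more starts of the DNA break repair and proliferation lists than at those of all tested genes with a start (34.3%). Other lists also stood above that share. Among tested genes with a start, they were lipid peroxide defence and iron (8 of 15), nucleic acid sensing (4 of 9) and antigen presentation (5 of 13), for example. The lists are short, and these shares were not tested. Of 27 DNA break repair genes with a known start 14 (51.9%) had one, of which 1 rose, 2 fell and 11 were not called, with a median difference of -0.18. In all, 2 of the 27 rose and 2 fell. Without control library 3, limma called BARD1, RAD51C and FANCD2 lower (adjusted p of 0.0074, 0.0045 and 0.04). Under both other scalings it called BRCA2 and PALB2 higher (adjusted p of 0.028 to 0.04). ATM, the kinase that signals double-strand breaks, had the highest score, 7.68, and its RNA was 23.7, 22.9 and 17.1 TPM in control and 15.2, 19.3 and 15.3 TPM in radioresistant libraries (-0.33, limma, adjusted p = 0.11, and 0.0064 without control library 3). TP53BP1, which steers breaks to end joining, fell by 0.75 and XRCC4, a ligase cofactor, by 0.72, while XRCC6, the Ku70 subunit, rose by 0.61 (limma, adjusted p of 0.0011, 0.0026 and 0.0023). Of 22 proliferation genes 10 (45.5%) had one, 2 of which rose and 1 fell, where 5 of the 22 rose and 3 fell in all. CCNB1, the mitotic cyclin, was 436, 380 and 361 TPM in control and 392, 448 and 417 TPM in radioresistant libraries, with overlapping groups (limma, adjusted p = 0.5). MCM3 differed by -0.09 (limma, adjusted p = 0.52). CDC20 and CDC6, activators of the cycle and of replication, rose by 0.48 and 0.52 (limma, adjusted p of 0.0042 and 0.012, and 0.068 for CDC6 without radioresistant library 3), and BUB1B, a spindle checkpoint kinase, fell by 0.73 (limma, adjusted p = 0.0008).

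Genes of lipid peroxide defence and iron had one at 8 of 17 starts, with 2 that rose and 3 that fell. In all, 2 of the 15 tested with a start rose and 7 fell. SLC3A2, a chain of the cystine importer, rose by 1.15 and HSPB1 by 0.71, while FADS2, a fatty acid desaturase, fell by 2.25, ACSL3, which activates fatty acids, by 1.09 and DHODH, an enzyme of pyrimidine synthesis, by 0.48 (limma, adjusted p of 5e-05, 0.003, 2.9e-07, 0.00013 and 0.013, and 0.066 for DHODH without control library 2). Of the replication histones 3 tested genes with such a summit all rose, HIST1H2AC by 1.47, where 9 of the 11 tested rose in all, and their reads can be shared among near-identical copies. Cytosolic ribosomal protein genes had one at 4 of 23 starts (17.4%), where 1 of the 23 rose and 6 fell in all. RPS6 alone of these 4 changed, with a fall of 0.42 (limma, adjusted p = 0.013). It was not called without control library 2 or radioresistant library 1 (adjusted p of 0.067 and 0.057) or with median-ratio scaling (0.082). Without control library 3, RPL27 and RPS27A were called as well (adjusted p of 0.029 and 0.038). Of the 25 lists, those of secreted senescence factors, cell-cycle inhibitors and the AP-1 family had one at 9.09% of starts each. These were 2 of 22, 1 of 11 and 1 of 11 genes with a start, tested or not, against 17.2% of all such genes. Oligodendrocyte markers had one at 0 of 3 starts. Targets of p53 had one at 5 of 20 starts, with 1 fall and no rise, where 7 of the 20 tested rose and 4 fell in all. Matrix genes had one at 4 of 20 starts, and TEAD and YAP targets at 2 of 12. AJUBA, a LIM protein, rose by 1.02 (limma, adjusted p = 0.00025), where 8 of the 12 tested TEAD and YAP targets rose in all. Immediate early genes had one at 4 of 13 starts, 9 of the 12 tested rose in all, and SRF, the serum response factor, and IER5 rose by 1.09 and 1.22 (limma, adjusted p = 0.00071 for both).

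A radioresistant-only summit also stood at the start of many genes with lower RNA. Of 8 mesenchymal glioblastoma genes with one, 6 fell, where 11 of the 23 tested genes of the list with a start fell in all, with WWTR1, a partner of TEAD, by 0.79, RUNX2 by 0.62 and STAT3 by 0.35 (limma, adjusted p of 0.00061, 0.0025 and 0.017). STAT3 was not called without control library 2 or radioresistant library 3 (adjusted p of 0.1 and 0.081) or with median-ratio scaling (0.053). All 3 proneural and stem genes with one fell, where 7 of the 11 tested fell in all. PDGFRA, the receptor of platelet-derived growth factor, went from 138, 127 and 97.4 TPM to 14.2, 14.7 and 8.95 TPM with a summit of 4.21 lying 506 bp upstream, a fall of 3.18 (SE 0.192, limma, adjusted p = 7.4e-07). SOX4 fell by 1.81 (limma, adjusted p = 7e-06). SLC1A3 was 74.2, 75 and 58.3 TPM and then 27.5, 32.8 and 33.7 TPM, and it fell by 1.11 (SE 0.138, limma, adjusted p = 0.00012).

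Among the largest falls of genes with a radioresistant-only summit at the start, NPY1R, a receptor of neuropeptide Y, fell by 4.49 (SE 0.193, limma, adjusted p = 6.3e-08), from 169, 160 and 114 TPM to 5.75, 7.01 and 4.13 TPM. COL21A1, a fibril-associated collagen with a summit of 3.49 lying 101 bp downstream of a start, was 44.2, 41.5 and 36.9 TPM in control and 0.517, 0.496 and 0.285 TPM in radioresistant libraries. COL21A1 and SLC44A5 passed the filter through the control libraries alone, so that their direction was fixed. PRSS35, CTNND2, LBH, MEIS2, SLC44A5, CAVIN2 (SDPR in the table) and DOCK4 completed the 10 largest falls with COL21A1, NPY1R and PDGFRA, at 3.59 down to 2.51 on the log2 scale. In the same way the largest rises, beside ISG15, TAP2, DDX60, PSMB8, DDX58, PLSCR1, AKR1C1 and PSMB8-AS1, were CD82, a tetraspanin, by 2.89, and STEAP1, a metalloreductase, by 2.56 (limma, adjusted p of 1.8e-06 and 7.8e-07). Of the 3575 genes 74 had a mean below 1 TPM in 1 of the groups, COL21A1 and SLC44A5 among them.

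**Figure D5:**
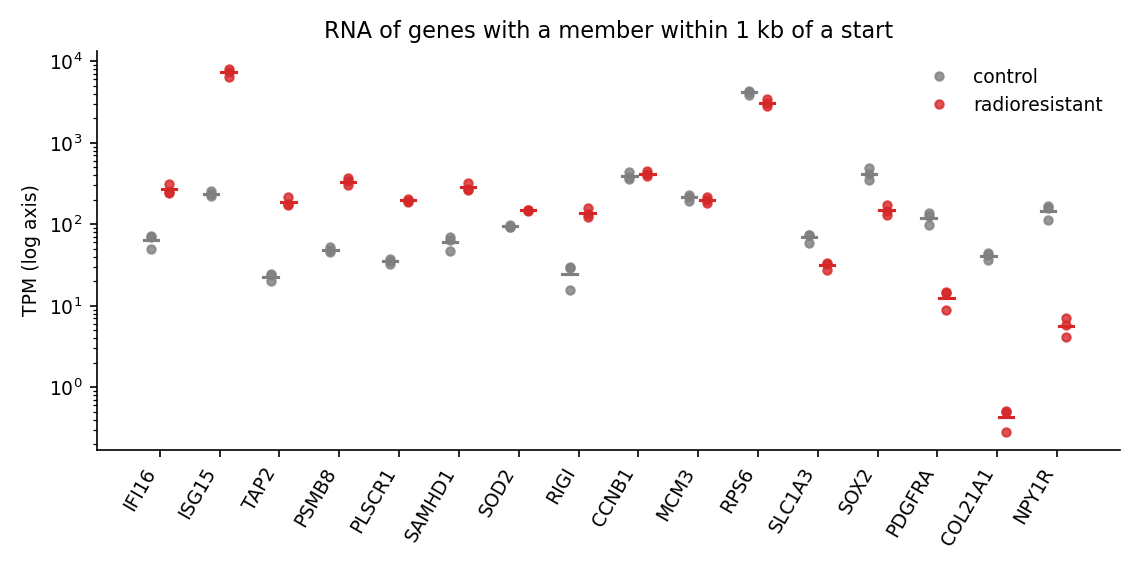
RNA level (TPM, log axis) of 16 genes with a radioresistant-only summit within 1 kb of a start, with 1 point per library, control in grey and radioresistant in red (3 libraries each), and bars at the means. IFI16 to RIGI (DDX58 in the RNA table) lie higher in the radioresistant libraries, CCNB1 and MCM3 overlap, and RPS6 to NPY1R lie lower.

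With knockdown of IFI16, genes with a radioresistant-only summit at the start were called higher at a share near that of all genes and lower at a smaller share. Of 3504 tested genes with a radioresistant-only summit at the start limma called 590 (16.8%) higher and 477 (13.6%) lower in shIFI16 than in shNC cells. Over all 12567 genes tested the shares were 16.6% and 16.3%, and the medians were 0.03 and 0.02. At least 2-fold changes numbered 22 higher (0.628%) and 21 lower (0.599%), against 1.08% and 1.11% of tested genes with a start. Without shNC library 3 the count of higher calls was 386 (11%, against 11.3% of all tested genes), and without shIFI16 library 2 it was 362 (10.4% against 10.6%). The smaller share of lower calls was not seen with the low-value filter off. There 11.1% were higher and 10.2% lower, against 9.43% and 9.75% of all tested genes. Nor was it seen at a summit score of 10 or more, where 17.6% were lower against 16.3%. Among the named genes, CD82 fell by 1.95 (SE 0.112, limma, adjusted p = 3.6e-09), from 36.1, 31.4 and 31 TPM to 9.13, 7.33 and 6.82 TPM. SOD2 fell by 1.06 (SE 0.0626, limma, adjusted p = 5.2e-09), and ISG20, an exonuclease of viral RNA, by 1.46 (SE 0.115, limma, adjusted p = 1.1e-07). ISG15 fell by 0.53 and DDX58 by 0.80 (limma, adjusted p of 1.3e-05 and 9.1e-07), whereas SP110, SAMHD1, TRIM25 and PLSCR1 were not called (adjusted p of 0.65, 0.089, 0.63 and 0.059). SAMHD1 and PLSCR1 were called lower under both other scalings (adjusted p of 0.02 to 0.036), and SAMHD1 without shIFI16 library 1 (0.0048). With shNC, all of these uncalled genes already stood far below their radioresistant means and near their control means. SP110 was 23.5, 25.1 and 21.7 TPM with shNC, against means of 24.1 TPM in control and 115 TPM in radioresistant cells. TRIM25 was 30.5, 30.4 and 26.8 TPM, against 36.1 and 132 TPM. SAMHD1 was 74.7, 70 and 70.3 TPM, against 60.3 and 288 TPM. PLSCR1 was 45.2, 43.5 and 41.4 TPM, against 35.3 and 197 TPM. PRSS35 rose by 2.72 and PDGFRA by 1.79 with shIFI16 (limma, adjusted p of 1.7e-11 and 6.5e-08), from 4.47, 3.92 and 4.15 TPM to 32.6, 35.4 and 31.6 TPM for PRSS35. PDGFRA went from 1.08, 1.14 and 1.02 TPM to 7.29, 5.96 and 5.41 TPM. With shNC both stood below radioresistant cells without a hairpin, whose means were 28 TPM for PRSS35 and 12.6 TPM for PDGFRA. With shIFI16 both stayed far below their control means of 348 and 121 TPM. ATAC-seq of the hairpin-bearing cells was not analysed here, so whether their summits changed is not shown.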

How the data were processed

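ATAC-seq was done on 1 control and 1 radioresistant library of U251MG cells, and RNA-seq on 3 libraries of each of 4 groups. For each ATAC-seq library the authors deposited a list of summits with a score, which by the file layout of MACS2 is a -log10 q-value; the lists start at 1.3 and every peak had 1 summit. Per the submitters' processing notes, Trim Galore 0.6.6, Bowtie2 2.2.5, SAMtools 1.10 and MACS2 2.1.4 were used, with TopHat, Cufflinks 2.2.1 and featureCounts also listed, on hg38. Sources used here do not give the peak settings, the read depths or any shift for Tn5.

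The RNA values the authors deposited were TPM, since each column summed to 1000000, although the tables were named as counts; TPM keeps no depth, and whether strand was used is not stated. Column codes were matched to groups by inference. UN and UR were read as control and radioresistant by the letters of the ATAC-seq pair, URN as shNC and URS as shIFI16. Limma 3.58.1 in R 4.3.3 was fitted on log2(TPM + 1) within each table with trended and robust moderation, over genes that reached 1 TPM in 3 or more of 6 libraries, with Benjamini-Hochberg adjustment and calls at an adjusted p under 0.05. Differences on this scale understate changes of low genes. Gene names turned into dates (28 entries) were dropped, and SEPTIN9 has no RNA value here. The fit was tested on simulated data.

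Positions are 1-based on hg38. Starts were the RefSeq promoter starts and the 5′ ends of RefSeq gene spans whose strand the promoter table gives (GRCh38.p14, the same assembly). Of the 13127 tested genes 10436 (79.5%) had a start; the others, HMOX1 and GFAP among them, entered no share at starts. No genome sequence was used, so motifs were counted in promoters and not around every summit. Motif letters were matched on both strands, and AP-1, CRE and ARE matches can overlap. Members and lists were chosen with earlier results of these data known. Genes were named if they were the nearest genes of the 10 highest summits or in the 5 largest clusters, if they were among the 4 highest scores per list, the 10 largest rises or falls of at least 2-fold with a mean of at least 2 TPM and no overlap of groups, or the 10 with the most summits within 50 kb, or if they were IFI16 or HMOX1; others are named as chosen after their values were seen. A result on 1 of the 10 highest summits is not reported here. List members beyond these 4 are given with their list. Alternatives changed the window, score, distances, start set, pseudocount, filter, scaling, replicate block and libraries.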

Additional observations from a re-analysis of the deposited data

How the results depend on the processing

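The count of radioresistant-only summits, 11401, lay between 11001 and 11991 with windows of 1000 and 100 bp. It fell to 3422 at a score of 5 or more and to 339 at 10 or more. The share within 1 kb of a start, 34.3%, was 40.8% and 43.8% at these scores, 31.1% within 500 bp, 36.7% within 2000 bp, 30.9% with protein-coding starts alone and 38.4% with both span ends of genes of unknown strand, an alternative added after the data were seen. The share in clusters, 2.46%, was 0.289% with gaps of at most 5000 bp, 23.2% with 50000 bp, and 0.935% and 0% at scores of 5 and 10 or more. With 1 library left out at a time, genes with such a summit at the start numbered 317 to 587 called higher and 619 to 1340 lower in radioresistant cells, and 362 to 660 and 341 to 555 with shIFI16. At a score of 10 or more these counts were 15 and 47 of 137 tested genes, and 18 and 24 of 136. A replicate block gave 443 higher and 949 lower, and 859 and 637 for shIFI16, but same-numbered libraries did not deviate together (correlations of -0.377, 0.245 and 0.081, and of 0.215, 0.088 and 0.028), so they share only a number. No other alternative moved these 4 counts by over 1.5 times. Among the named genes checked, no called RNA difference changed sign under the scaling, filter, pseudocount, block or leave-out alternatives. SRGAP2C, PPP1R11, EVI5L, CMPK2 and XAF1 were not among the genes checked. Of the genes checked, 10 lost a call in radioresistant cells and 15 with shIFI16 under at least 1 of them, while 21 and 17 gained one. The single ATAC-seq library per condition and the unknown depth limit every statement on which summits are on 1 list alone.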
